A study of Mus musculus with 41 samples.

Results

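The 47 genes described here act in mitosis and cytokinesis, from the kinases that start nuclear division to the proteins that part the daughter cells. They were taken by symbol from a list of genes of G2, the spindle and cell separation, and all 47 were found among the 24015 genes of the deposited table of normalized counts. By role they comprised 8 kinases, cyclins and partners of mitotic entry, 6 genes of the spindle checkpoint and the anaphase-promoting complex, 4 subunits of the chromosomal passenger complex, 7 centromere and kinetochore genes, 6 genes of condensin and the mitotic chromosome, 9 spindle and motor genes and 7 cytokinesis genes. RNA came from microglia, the resident macrophages of the brain, sorted from the cerebellum of perfused mice as CD11b+Tmem119+ cells. The 41 libraries covered wild-type (WT) mice of strain balb/c and mice of strain BALB/cNctr-Npc1m1N/J, called NPC, which carry a mutation in the cholesterol transporter Npc1. WT mice at 1, 3, 6 and 9 weeks of age and NPC mice at 1, 3 and 6 weeks had 4 libraries per group, untreated NPC mice at 9 weeks had 3, and NPC mice at 9 weeks labelled PLX5622 or Control had 5 each. PLX5622 inhibits the receptor kinase Csf1r, on whose signal microglia depend. Its dose and timing, and what the Control mice received, are not given in the labels, and the mutation was present in every cell of the NPC animals rather than in microglia alone. The labels count mice as the replicates, so p-values measure the spread between mice.

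Cells enter mitosis when Cdk1 and its B-type cyclins become active, attach their chromosomes to the spindle under the watch of a checkpoint, and separate after the anaphase-promoting complex destroys cyclins and securin. The RNAs of most of these proteins are low in resting cells and accumulate in G2 and mitosis, because the DREAM and MuvB complexes and the factors NF-Y, B-Myb and FoxM1 act on their promoters. Microglia multiply in the first weeks after birth and divide slowly in the adult brain, with bursts after injury or after depletion.

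A pair of short promoter sequences known from such genes, the CCAAT box and the cell cycle genes homology region (CHR), were looked for in RefSeq promoter windows of build GRCm38.p6, which run from 250 bases before to 50 bases after each gene's start. Windows were found for 39 of the 47 genes, and only the first listed window of each gene was searched. CCAAT, or ATTGG on the other strand, was present in 29 of them (74.4%), against 37.9% of the windows of 27025 genes. The CHR letters TTTGAA, or TTCAAA on the other strand, were present in 31 (79.5%, against 18.1%), and TTCGAA, which reads the same on both strands, in 3 (7.69%, against 1.57%). Both a CCAAT box and a CHR were present in 27 windows (69.2%, against 7.7%), and a CHR began within 50 bases of the start in 30 (76.9%, against 5.29%). Among 26 DNA replication genes with a window, 15 had a CCAAT box (57.7%) and 1 had a CHR that near (3.85%). Among 29 mitotic genes outside the 47 with a window, 18 had a CCAAT box (62.1%) and 12 a CHR that near (41.4%). These are matches of letters, not tests of binding. The windows below belong to the gene of each role group that had a window and the smallest adjusted p for NPC against WT at 6 weeks: Ccnb2 at chr9:70421505-70421804 on the minus strand, Bub1 at chr2:127831810-127832109 on the minus strand, Birc5 at chr11:117848987-117849286 on the plus strand, Nuf2 at chr1:169531415-169531714 on the minus strand, Ncapg at chr5:45669675-45669974 on the plus strand, Kif2c at chr4:117178723-117179022 on the minus strand, Racgap1 at chr15:99651607-99651906 on the minus strand. All 47 genes, these 7 among them, fell from 1 to 3 weeks, and the part of the searched letters in that fall was not tested. Each window is written in the direction of its gene, with CCAAT and CHR matches on either strand in capitals. Birc5 and Nuf2 held none of the searched letters in these windows, and that of Kif2c had a CHR 103 bases before its start and no CCAAT box. Any other starts of these genes were not searched.
Ccnb2: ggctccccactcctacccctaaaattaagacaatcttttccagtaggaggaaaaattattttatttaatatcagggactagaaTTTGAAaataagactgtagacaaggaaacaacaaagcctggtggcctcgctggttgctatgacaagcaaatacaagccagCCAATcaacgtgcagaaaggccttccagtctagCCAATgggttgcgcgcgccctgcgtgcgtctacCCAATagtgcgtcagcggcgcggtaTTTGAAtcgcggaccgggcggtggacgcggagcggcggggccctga
Bub1: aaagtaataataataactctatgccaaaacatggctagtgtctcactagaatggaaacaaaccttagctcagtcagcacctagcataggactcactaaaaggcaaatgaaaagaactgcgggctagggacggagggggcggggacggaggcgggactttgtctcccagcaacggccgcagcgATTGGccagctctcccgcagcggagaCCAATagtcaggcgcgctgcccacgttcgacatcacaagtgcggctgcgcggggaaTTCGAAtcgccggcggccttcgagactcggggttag
Birc5: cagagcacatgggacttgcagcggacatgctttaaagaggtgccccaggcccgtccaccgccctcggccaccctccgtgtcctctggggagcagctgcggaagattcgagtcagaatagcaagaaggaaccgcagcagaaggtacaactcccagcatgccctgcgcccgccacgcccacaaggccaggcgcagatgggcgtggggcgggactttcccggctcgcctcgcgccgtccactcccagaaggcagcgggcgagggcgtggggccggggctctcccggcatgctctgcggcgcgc
Nuf2: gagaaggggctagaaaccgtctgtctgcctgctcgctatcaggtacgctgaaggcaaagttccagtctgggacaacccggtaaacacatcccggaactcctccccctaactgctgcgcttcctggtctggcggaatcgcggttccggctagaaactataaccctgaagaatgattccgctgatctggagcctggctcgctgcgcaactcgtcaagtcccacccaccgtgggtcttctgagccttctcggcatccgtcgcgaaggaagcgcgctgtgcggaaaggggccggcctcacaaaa
Ncapg: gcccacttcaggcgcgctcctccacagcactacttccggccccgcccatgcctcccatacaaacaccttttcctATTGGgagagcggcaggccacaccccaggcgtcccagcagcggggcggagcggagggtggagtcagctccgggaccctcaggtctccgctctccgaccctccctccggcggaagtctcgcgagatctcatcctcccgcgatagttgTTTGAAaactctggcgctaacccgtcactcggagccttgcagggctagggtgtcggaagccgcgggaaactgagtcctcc
Kif2c: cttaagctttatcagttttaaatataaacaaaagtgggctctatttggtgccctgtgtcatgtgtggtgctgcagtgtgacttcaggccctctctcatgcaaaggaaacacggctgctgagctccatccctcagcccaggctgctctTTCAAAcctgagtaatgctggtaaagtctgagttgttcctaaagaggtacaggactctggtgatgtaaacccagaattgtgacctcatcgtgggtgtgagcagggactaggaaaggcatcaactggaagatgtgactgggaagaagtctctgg
Racgap1: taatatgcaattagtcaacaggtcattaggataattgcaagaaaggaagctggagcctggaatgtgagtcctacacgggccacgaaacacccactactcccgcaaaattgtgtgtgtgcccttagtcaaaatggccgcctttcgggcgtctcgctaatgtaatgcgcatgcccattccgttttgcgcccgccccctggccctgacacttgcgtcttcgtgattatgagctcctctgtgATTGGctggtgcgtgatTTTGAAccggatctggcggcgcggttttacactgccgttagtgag

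Recovered depth was 23.2 M to 40.5 M reads per library (M, 1e+06 reads). Npc1 lay between 2606 and 7386 normalized counts in WT libraries and between 291 and 787 in NPC libraries. The 10 microglial markers, among them Tmem119, Itgam and Csf1r, were present in all 41 libraries. Values were compared as log2(normalized count + 1) with limma, with Benjamini-Hochberg adjustment over all genes tested and a threshold of 0.05, and a change is given as a log2 difference ± its standard error. All 47 genes passed the filter on low values, also when the 1-week libraries were left out of it. A library that stood apart comes first. NPC 3 weeks replicate C was the highest of its group for 19 of the 47 genes and the lowest for another 19, including Incenp at 40.3 normalized counts, Top2a at 23.4 and Cenpf at 2.60 against Cdk1 at 727 and Ccnb2 at 551. The 24 genes with transcripts of up to 3645 bases (the longest GENCODE transcript of each) had a median log2 difference between replicate C and the mean of the other NPC 3-week libraries of 0.33, and the 23 with longer transcripts of -0.33. Spearman's rho between length and this difference was -0.35 across the 47 genes and -0.48 across 11184 genes, as a description of this library. The counting strand is not given in the sources used here, so reads of 12 of the genes (Ccna2, Cdc25c, Plk1, Cdc20, Ube2c, Cdca8, Ncapg, Kif4, Kif22, Nusap1, Kif20a and Prc1) cannot be told apart from those of a gene that overlaps their exons on the opposite strand.

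The 47 genes were far higher at 1 week than at any later age, in both genotypes. Their summed level was 75792 to 88541 normalized counts in the WT libraries at 1 week and 4764 to 5454 at 3 weeks. In NPC mice the sums were 69645 to 79410 and 6896 to 8026. From 1 to 3 weeks all 47 fell in WT (18.4% of all tested genes were lower and 15.7% higher) and all 47 fell in NPC (12.8% lower and 12.2% higher). For each of them every 3-week library lay below every 1-week library, which held for 20.5% of all genes in WT and 10.6% in NPC, and the opposite held for 17.9% and 10%. The median fall was 34.9-fold in WT and 16.7-fold in NPC, and 41 and 38 of the genes fell by more than 10-fold. In bulk RNA a smaller share of dividing cells and less of these RNAs in each dividing cell cannot be told apart. The sorted 1-week samples also held more RNA of granule neuron progenitors, which divide in the cerebellum at this age: the 10 markers summed to 163 to 908 normalized counts at 1 week and 0 to 74.4 in all later libraries, with Atoh1 at 0 in all libraries of 7 of the 8 later groups. The 10 markers of oligodendrocyte progenitors also summed higher at 1 week, to 228 to 1492 normalized counts against 43.4 to 388 in all later libraries. The part of either cell type in the fall was not tested.

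**Figure D1:**
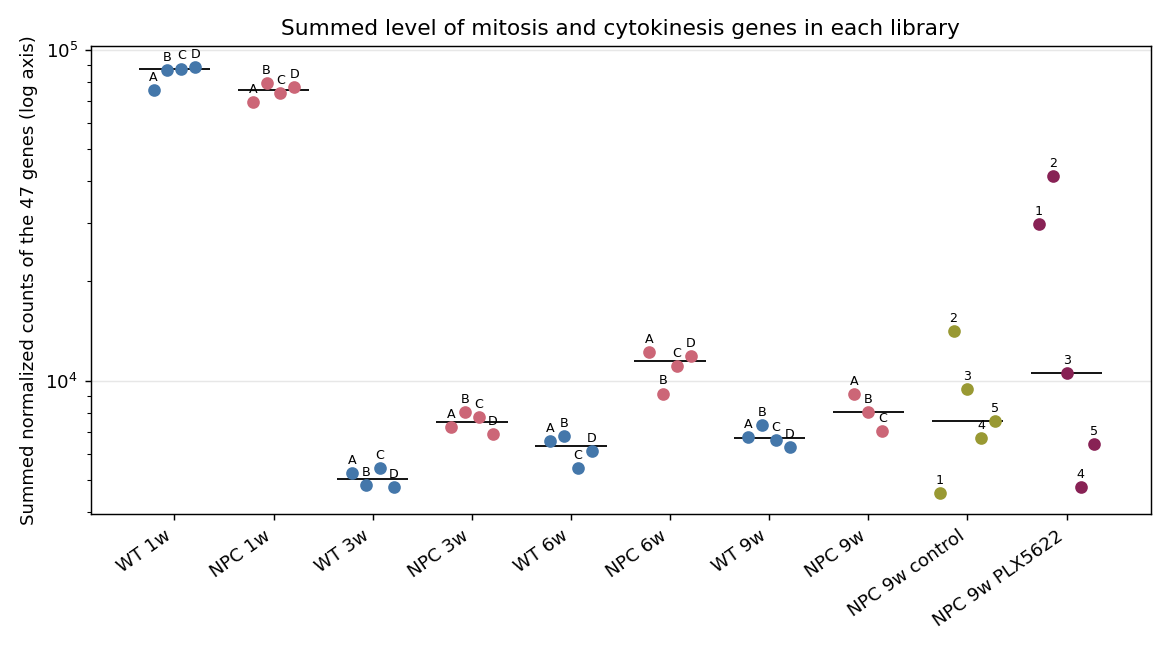
Summed normalized counts of the 47 genes in each of the 41 libraries (log axis), with groups on the x axis, 1 labelled point per library and a line at the group median. The 1-week libraries lie between 69645 and 88541, PLX5622 replicates 1 and 2 at 29680 and 41425, and all other libraries at or below 14109.5.

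The fall was not the same for every gene. Ncaph, a condensin I subunit, measured 2907, 2553, 2420 and 2438 normalized counts in WT replicates A to D at 1 week and 1473, 1503, 1609 and 1415 at 3 weeks, a 1.72-fold fall and the smallest of the 47 in WT. It was also the smallest in NPC, at 1.52-fold. The 3-week libraries all lay below the 1-week ones, and Ncaph was 1189 to 1679 in WT at 6 weeks and 911 to 1160 at 9 weeks. In NPC it was 1192 to 1347 at 6 weeks and 937 to 1170 in untreated mice at 9 weeks. Mad2l1 of the spindle checkpoint (5.90-fold in WT) and the chromosome-organizing subunits Smc2 and Smc4 (log2 -2.58 ± 0.35 and -2.93 ± 0.47) were also among the smaller falls. At the other end, the chromosome-bound motor Kif4 fell 125-fold in WT, from 750, 1030, 951 and 895 normalized counts to 6.20, 4.26, 11.4 and 4.80, and Ube2c, the ubiquitin-conjugating partner of the anaphase-promoting complex, fell 112-fold. The 3-week WT values came from 5 to 11 reads per library for Kif4 and 14 to 18 for Ube2c.

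**Figure D2:**
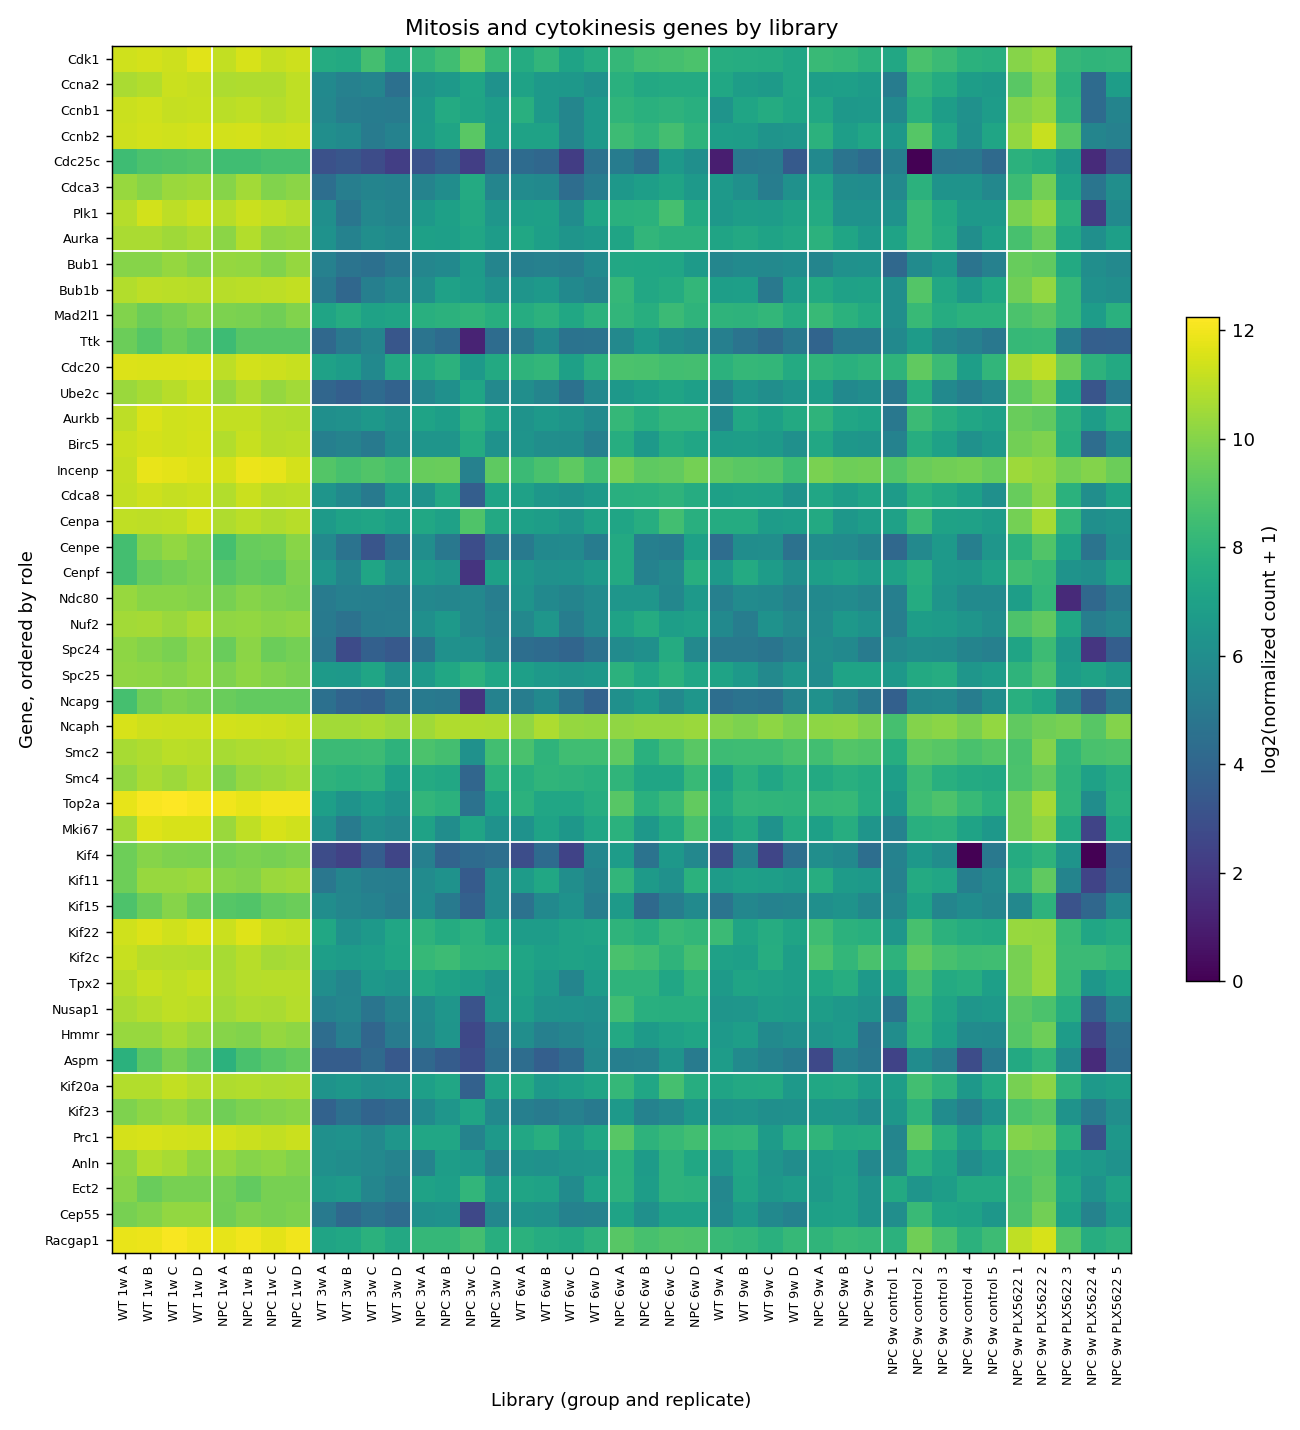
Colour map of log2(normalized count + 1) for the 47 genes (rows, ordered by role, with white lines between roles) in the 41 libraries (columns, with white lines between groups). The 1-week columns are bright for nearly every gene, Ncaph changes least between the 1-week and 3-week columns, and PLX5622 replicates 1 and 2 stand out among the 9-week columns.

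At 1 week no gene passed the test between NPC and WT in either direction (0.876% of all tested genes were higher and 0.577% lower). None had an unadjusted p under 0.05 with limma, against 1642 of all 14046 genes. The counts of passing genes with edgeR and DESeq2 were also 0, as was that with a replicate block for the shared library letters. The median log2 difference over the 47 was -0.21, against 0.00 over all genes, and 8 genes were lower in every NPC library than in any WT library (4.04% of all genes), among them Cdc20, Birc5 and Cenpa. None was higher in every NPC library (4.59% of all genes).

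At 3 and 6 weeks the genotypes parted. At 3 weeks 21 of the 47 genes were higher in NPC than in WT and none passed in the other direction (14.3% and 12.6% of all genes), with a median log2 difference of 0.64 against -0.04 over all genes. At 6 weeks 26 were higher and none lower (8.76% and 6.5% of all genes), with a median of 1.06 against -0.02. Of these, 19 were higher at both ages, Mad2l1 and Ect2 at 3 weeks alone and 7 at 6 weeks alone. In 15 genes at 3 weeks and 27 at 6 weeks every NPC library lay above every WT library, which held for 12.3% and 10.4% of all genes. No gene lay wholly below at either age (10.9% and 9.53% of all genes). The count at 3 weeks depended on the libraries behind the estimate of spread: with a fit limited to the WT and NPC 3-week libraries only Ccnb1, Ube2c, Kif2c and Kif23 passed. Without NPC 3 weeks replicate C, 21 genes were again higher, of which 14 were shared: Cdk1, Aurkb, Tpx2, Ect2, Mad2l1, Kif22 and Kif4 no longer passed, while Top2a, Kif20a, Cep55, Nusap1, Cdc20, Cdca8 and Prc1 did. At 6 weeks, NPC replicates B and C had more oligodendrocyte marker signal (19784 and 17038 summed normalized counts against 9145 and 6796 in replicates A and D), and without both of them 19 genes were higher. Changes of method, or leaving out both B and C, gave 19 to 34 higher genes at 6 weeks. NPC 3 weeks replicate C entered the 6-week test too, through the pooled spread. Through every alternative tried, 4 genes remained higher at 3 weeks (Ccnb1, Ube2c, Kif2c and Kif23) and 13 at 6 weeks (Ccnb1, Ccnb2, Bub1, Bub1b, Aurkb, Birc5, Nuf2, Spc24, Kif22, Kif2c, Tpx2, Prc1 and Racgap1). Smc4 was lower at 3 weeks without NPC 3 weeks replicate D.

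**Figure D3:**
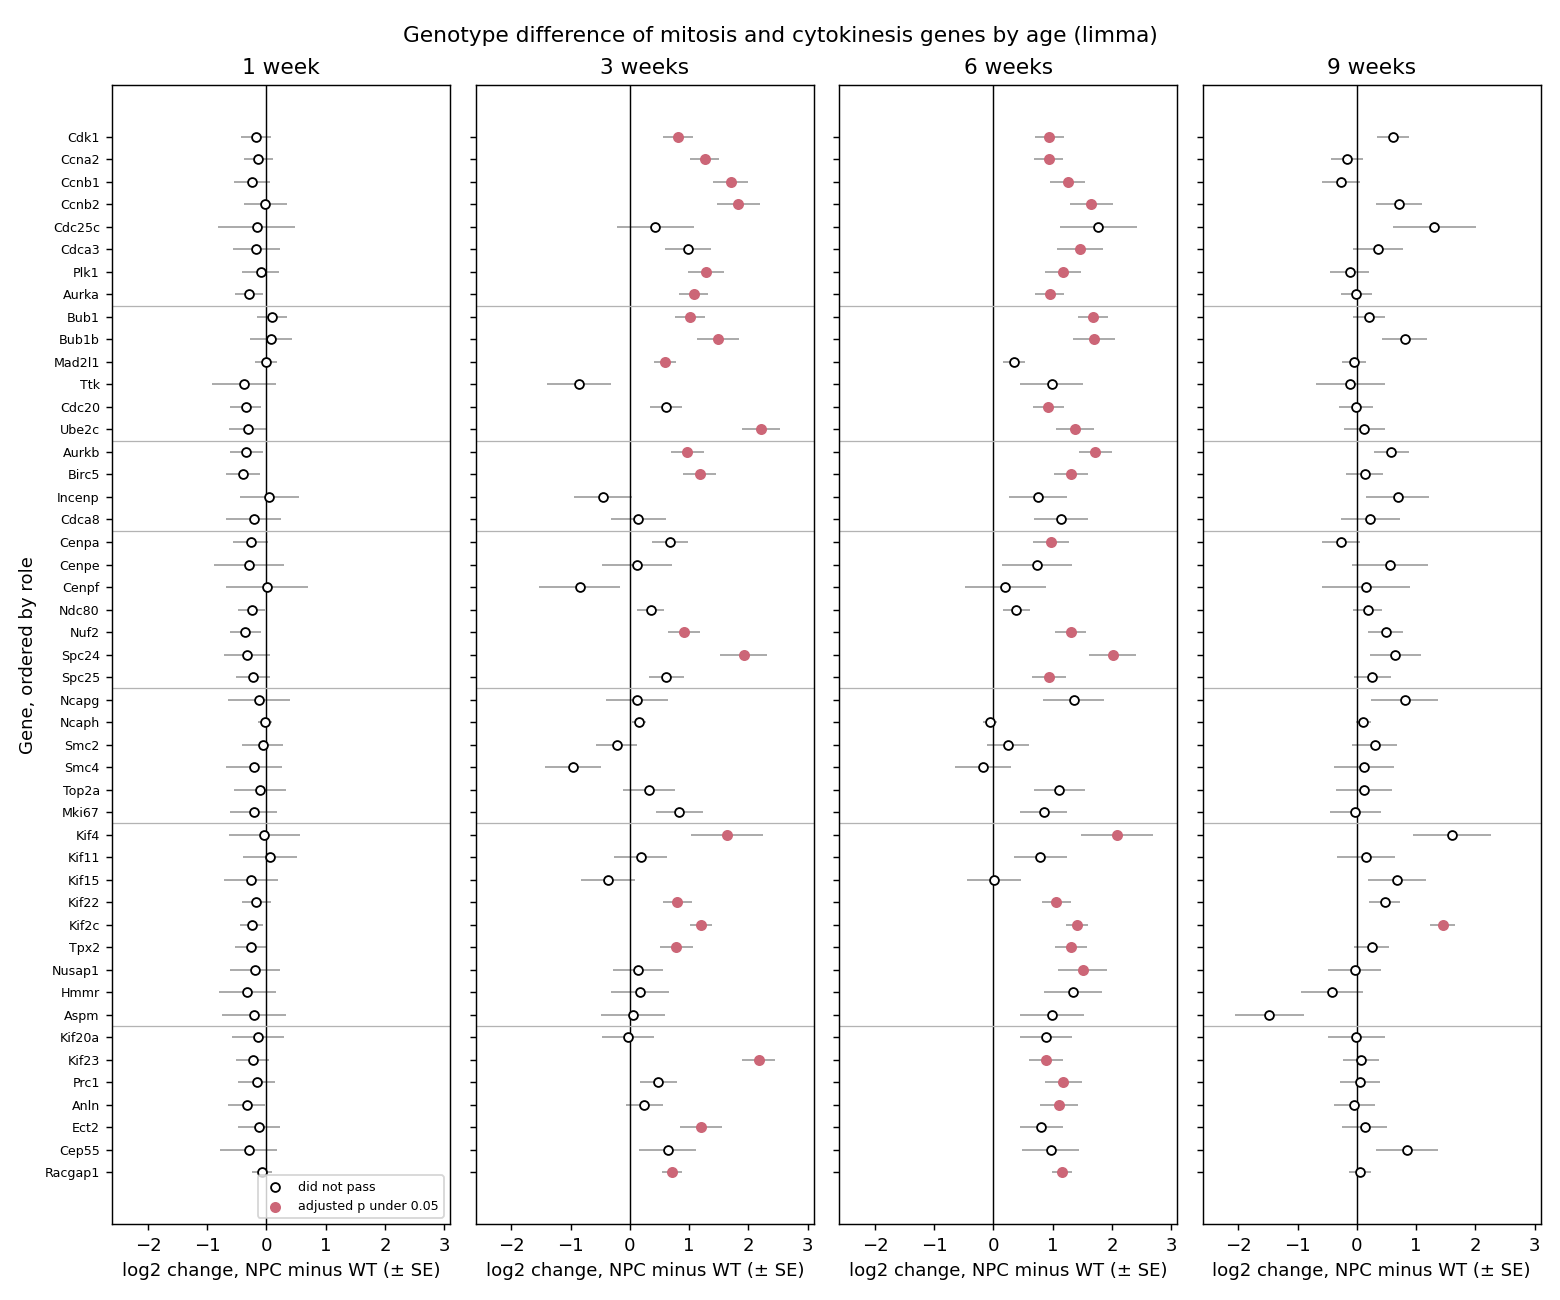
Log2 difference, NPC minus WT, with its standard error for each of the 47 genes (rows, ordered by role) at 4 ages, with filled points for an adjusted p under 0.05 by limma. The points sit near 0 at 1 week, 21 are filled at 3 weeks, 26 at 6 weeks, and Kif2c alone at 9 weeks.

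Of the 8 entry genes, 6 were higher in NPC at 3 weeks and 7 at 6 weeks (14.3% and 8.76% of all genes). Cdk1, the mitotic kinase itself, measured 182, 170, 376 and 190 normalized counts in WT replicates A to D at 3 weeks and 267, 352, 727 and 306 in NPC. WT replicate C and NPC replicate C were the highest of their groups, and the groups overlapped (log2 difference 0.81 ± 0.25, adjusted p = 0.0198). At 6 weeks they did not: Cdk1 was 185, 261, 137 and 193 in WT and 286, 364, 392 and 435 in NPC (0.95 ± 0.25, adjusted p = 0.00956). Ccnb2, a B-type cyclin that activates Cdk1, measured 64.1, 57.1, 33.3 and 42.2 in WT at 3 weeks and 101, 139, 551 and 111 in NPC (1.83 ± 0.36, adjusted p = 0.000603). The lowest NPC library was above the highest WT library, and replicate C stood far above the others. At 6 weeks Ccnb2 was 131, 132, 48.9 and 97.0 in WT and 333, 269, 380 and 244 in NPC, again without overlap (1.65 ± 0.36, adjusted p = 0.00173). Ccnb1, the main partner of Cdk1, was higher at both ages (1.70 ± 0.30 and 1.25 ± 0.30), as were the S and G2 cyclin Ccna2, the polo kinase Plk1 and the centrosomal kinase Aurka. The F-box protein gene Cdca3 passed at 6 weeks (1.47 ± 0.39, adjusted p = 0.00966). Cdc25c, the phosphatase that activates Cdk1, passed at neither age (0.42 ± 0.65 and 1.77 ± 0.65), with 3.70 to 23.7 normalized counts in WT at 6 weeks.

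In the checkpoint and anaphase-promoting complex group, 4 of 6 genes were higher at each age (14.3% of all genes at 3 weeks and 8.76% at 6 weeks). Cdc20, which activates the complex at anaphase, measured 128, 109, 55.1 and 164 normalized counts in WT at 3 weeks and 179, 236, 96.2 and 170 in NPC, where the groups overlapped and the test was not passed (0.61 ± 0.26, adjusted p = 0.0845). At 6 weeks it was 251, 271, 124 and 233 in WT and 440, 418, 369 and 382 in NPC, with all NPC libraries higher (0.93 ± 0.26, adjusted p = 0.0156). The checkpoint kinase-like protein gene Bub1b measured 31, 16.2, 37.4 and 50.8 in WT at 3 weeks and 64.6, 129, 108 and 72.3 in NPC (1.49 ± 0.35, adjusted p = 0.00312). The groups were apart there and also at 6 weeks, with 83.4, 98.0, 54.8 and 43.1 in WT and 281, 163, 181 and 271 in NPC (1.70 ± 0.35, adjusted p = 0.000981). Its kinase relative Bub1 was higher at both ages, by 1.01 ± 0.25 and 1.69 ± 0.25. Ube2c had the largest difference of all 47 genes at 3 weeks, a 4.62-fold higher level (2.21 ± 0.32, adjusted p = 1.3e-05). Its 4 WT values were 15.5, 11.9, 18.7 and 13.4, and its NPC values were 48.6, 69.4, 144 and 53.4. Mad2l1, which holds Cdc20 in check until chromosomes are attached, passed at 3 weeks (0.59 ± 0.19, adjusted p = 0.0219) and not at 6 weeks (0.35 ± 0.19). Ttk, the kinase that starts the checkpoint, passed at neither age (-0.86 ± 0.54 and 0.98 ± 0.54), and NPC 3 weeks replicate C held 1.30 normalized counts of it.

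The passenger complex carries the kinase Aurkb to centromeres and later to the midzone. Aurkb measured 68.2, 71.6, 90.5 and 71.0 normalized counts in WT at 3 weeks and 137, 116, 225 and 132 in NPC (0.97 ± 0.28, adjusted p = 0.0121). At 6 weeks it was 77.9, 94.0, 80.7 and 58.2 in WT and 287, 201, 270 and 271 in NPC (1.72 ± 0.28, adjusted p = 4.2e-05). At both ages every NPC library was above every WT library. The subunit gene Birc5 (survivin) was higher at both ages as well (1.18 ± 0.28 and 1.31 ± 0.28). Incenp, the scaffold of the complex, measured 494, 406, 482 and 412 in WT at 3 weeks and 665, 689, 40.3 and 590 in NPC, so that replicates A, B and D were above all WT libraries and replicate C was below all of them (-0.46 ± 0.49, adjusted p = 0.505). At 6 weeks Incenp was 325, 425, 587 and 375 in WT and 808, 597, 634 and 811 in NPC. The 6-week groups did not overlap, yet the test was not passed (0.76 ± 0.49, adjusted p = 0.331). Its spread was estimated over all time-course groups, with NPC 3 weeks replicate C among the libraries. Cdca8 (borealin) did not pass at 3 weeks (0.14 ± 0.46) or at 6 weeks (1.14 ± 0.46, adjusted p = 0.0923).

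Among the 7 centromere and kinetochore genes, 2 were higher at 3 weeks and 4 at 6 weeks (14.3% and 8.76% of all genes). Cenpa, the centromeric histone, measured 101, 132, 144 and 121 normalized counts in WT at 3 weeks and 154, 126, 463 and 169 in NPC (0.67 ± 0.30, adjusted p = 0.0926). The groups overlapped through NPC replicate B, and replicate C was again far above the rest. At 6 weeks Cenpa was 123, 110, 85.2 and 134 in WT and 147, 198, 375 and 212 in NPC, without overlap (0.97 ± 0.30, adjusted p = 0.0265). Nuf2, a subunit of the Ndc80 complex that binds microtubules, measured 32, 23.9, 35.4 and 36.5 in WT and 67.1, 95, 50.7 and 40.9 in NPC at 3 weeks (0.91 ± 0.27, adjusted p = 0.0136). At 6 weeks it was 50.9, 84.8, 35.5 and 59.3 in WT and 130, 182, 116 and 129 in NPC (1.30 ± 0.27, adjusted p = 0.000851), and the groups were apart at both ages. Spc24, of the same complex, was higher by 1.92 ± 0.39 and 2.01 ± 0.39, and Spc25 passed at 6 weeks (0.94 ± 0.29). Their partner Ndc80 did not pass (0.35 ± 0.23 and 0.39 ± 0.23). The large kinetochore proteins Cenpe and Cenpf did not pass either, with Cenpf at 0.20 ± 0.69 at 6 weeks.

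None of the 6 condensin and chromosome genes passed at 3 or 6 weeks with limma. At an unadjusted p under 0.05 there were 1 and 3 of them, against 5711 and 3969 of all 14046 genes. The spread was pooled over all time-course groups, so NPC 3 weeks replicate C also entered the 6-week tests. For Ncapg, Smc2, Smc4 and Top2a its values were 0.10, 0.19, 0.09 and 0.12 times the log-scale mean of the other NPC 3-week libraries. For Mki67 and Ncaph they were 1.63 and 1.09 times that mean. Ncaph was 1189, 1679, 1262 and 1204 normalized counts in WT at 6 weeks and 1192, 1268, 1271 and 1347 in NPC, with the NPC values inside the WT range (-0.06 ± 0.12, adjusted p = 0.799). Top2a, the topoisomerase that disentangles sister chromatids, measured 118, 75.9, 108 and 76.7 in WT at 3 weeks and 262, 228, 23.4 and 128 in NPC (0.32 ± 0.44, adjusted p = 0.607). Replicates A, B and D were above every WT library and replicate C below. At 6 weeks Top2a was 233, 150, 150 and 197 in WT and 537, 216, 312 and 632 in NPC, where WT replicate A and NPC replicate B overlapped (1.11 ± 0.44, adjusted p = 0.0848). Mki67, the chromosome surface protein used as a proliferation marker, measured 71.3, 33.3, 65.5 and 52.8 in WT and 131, 63.0, 139 and 74.4 in NPC at 3 weeks (0.83 ± 0.40, adjusted p = 0.115). At 6 weeks it was 74.7, 135, 88.1 and 151 in WT and 223, 90.8, 170 and 418 in NPC (0.85 ± 0.40, adjusted p = 0.155). The groups overlapped at both ages, and this widely used marker did not pass the test at any age. Ncapg, Smc2 and Smc4 did not pass either (1.35 ± 0.52, 0.25 ± 0.35 and -0.18 ± 0.47 at 6 weeks). Without NPC 6 weeks replicates B and C, Top2a and Mki67 were among the 19 genes that passed.

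Of the 9 spindle and motor genes, 4 were higher in NPC at 3 weeks and 5 at 6 weeks (14.3% and 8.76% of all genes). Kif22, a motor that pushes chromosome arms to the spindle equator, measured 156, 71.6, 97.8 and 152 normalized counts in WT at 3 weeks and 240, 184, 235 and 148 in NPC, with replicate D inside the WT range (0.80 ± 0.25, adjusted p = 0.0191). At 6 weeks it was 107, 109, 133 and 141 in WT and 246, 205, 301 and 277 in NPC, without overlap (1.06 ± 0.25, adjusted p = 0.00305). Kif2c, a kinesin that takes microtubules apart at centromeres, separated the genotypes with a small spread. It measured 117, 104, 114 and 148 in WT and 297, 333, 246 and 240 in NPC at 3 weeks (1.20 ± 0.19, adjusted p = 4.31e-05), and 145, 122, 133 and 125 against 425, 359, 247 and 400 at 6 weeks (1.41 ± 0.19, adjusted p = 3.35e-06). No NPC library reached down to a WT library at either age. The spindle assembly factor Tpx2 was higher at both ages (0.78 ± 0.27 and 1.31 ± 0.27). Kif4 was too, by 1.63 ± 0.60 and 2.08 ± 0.60, from values of 4.26 to 11.4 in WT at 3 weeks. The microtubule bundler Nusap1 passed at 6 weeks (1.51 ± 0.42), and Kif11, Kif15, Hmmr and Aspm passed at neither age.

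In the cytokinesis group 3 of 7 genes were higher at 3 weeks and 4 at 6 weeks (14.3% and 8.76% of all genes). Racgap1, a subunit of the centralspindlin complex that organizes the midzone, measured 139, 156, 228 and 169 normalized counts in WT at 3 weeks and 280, 280, 386 and 200 in NPC, with replicate D inside the WT range (0.71 ± 0.17, adjusted p = 0.00356). At 6 weeks it was 225, 192, 175 and 243 in WT and 529, 408, 463 and 454 in NPC, well apart (1.15 ± 0.17, adjusted p = 1.35e-05). Kif23, its motor partner in centralspindlin, was 4.51-fold higher at 3 weeks (2.17 ± 0.28, adjusted p = 2.32e-06): WT libraries held 13.4, 22.2, 14.6 and 17.3, and NPC libraries 54.5, 85.4, 147 and 54.5. At 6 weeks its difference was 0.89 ± 0.28. Prc1, which cross-links midzone microtubules, was 70.3, 75.0, 54.1 and 84.4 in WT and 150, 148, 42.9 and 95.3 in NPC at 3 weeks (0.48 ± 0.31, adjusted p = 0.254). Replicate C was below all WT libraries and the other NPC libraries were above them. At 6 weeks Prc1 was 162, 204, 104 and 154 in WT and 527, 239, 305 and 371 in NPC, without overlap (1.18 ± 0.31, adjusted p = 0.00884). The ring scaffold Anln passed at 6 weeks (1.10 ± 0.32) and the RhoA activator Ect2 at 3 weeks (1.19 ± 0.36). Kif20a and the abscission protein gene Cep55 passed at neither age.

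At 9 weeks 5 of the 47 genes had an unadjusted p under 0.05 between NPC and WT with limma, against 4326 of all 14046 genes. After adjustment 1 was higher in NPC and none lower (11.2% and 7.77% of all genes), and edgeR and DESeq2 each gave 1 higher and 0 lower. That gene was Kif2c, at 126, 120, 195 and 116 normalized counts in WT and 437, 278 and 426 in NPC (1.45 ± 0.21, adjusted p = 5.97e-06), with no overlap. In 6 genes every NPC library was above every WT library (20.8% of all genes) and in none below (17.5%). The median log2 difference was 0.15, against 0.03 over all genes. Racgap1, for example, was 300, 277, 216 and 298 in WT and 257, 304 and 283 in NPC (0.05 ± 0.19), and Cdc20 was 229, 287, 277 and 179 in WT and 253, 215 and 245 in NPC. For both the NPC values fell inside or beside the WT range. Kif2c passed in every alternative. Kif4 joined it without WT 9 weeks replicate B or without NPC 9 weeks replicate C, and Aspm was lower without NPC 9 weeks replicate B. Without NPC 3 weeks replicate C, which enters this comparison only through the pooled spread, 4 genes were higher (Cdk1, Incenp, Cep55 and Kif2c) and Aspm was lower. The test of the difference between ages passed for 8 genes from 1 to 3 weeks, all with a more positive NPC minus WT difference at 3 weeks (0.861% of all genes): Ccna2, Ccnb1, Aurka, Ube2c, Birc5, Spc24, Kif2c and Kif23. Ube2c, Kif2c and Kif23 passed in every alternative. The count was 4 without WT 1 week replicate B, C or D, WT 3 weeks replicate B, NPC 1 week replicate A or C, or NPC 3 weeks replicate B. It was 5 without WT 1 week replicate A, WT 3 weeks replicate C or D, NPC 1 week replicate D or NPC 3 weeks replicate C. Between 3 and 9 weeks the difference became smaller for Ccnb1 (-1.96 ± 0.44, adjusted p = 0.0363), Ube2c (-2.08 ± 0.48, adjusted p = 0.0394) and Kif23 (-2.10 ± 0.42, adjusted p = 0.0136), against 0.192% of all genes. Kif23 alone passed without WT 3 weeks replicate B or D, WT 9 weeks replicate B, C or D, NPC 3 weeks replicate B or NPC 9 weeks replicate B, and no gene passed without NPC 9 weeks replicate C or with a replicate block. Both tests share the 3-week libraries with the comparison at that age.

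Within a genotype, changes after 3 weeks were small beside the first fall. In WT only Ccna2 was higher at 6 than at 3 weeks (1.27 ± 0.24, adjusted p = 0.0332, 0.0427% of all genes against 0.0142% lower), from 55.8, 40.9, 45.8 and 22.1 normalized counts to 131, 96.7, 91.8 and 71.1. Of the 47, 21 had an unadjusted p under 0.05, against 1363 of all 14046 genes. In 13 genes every 6-week library lay above every 3-week library (3.17% of all genes), and in none below (1.74%). No gene passed without WT 3 weeks replicate B, C or D or WT 6 weeks replicate A or B, 7 passed without WT 6 weeks replicate C, and 3 without NPC 3 weeks replicate C. In NPC Bub1, Cdc20, Nusap1, Hmmr and Prc1 were higher at 6 than at 3 weeks (0.164% of all genes against 0.0641% lower). An unadjusted p under 0.05 was found for 34 of the 47, against 1503 of all 14046 genes. In 16 genes the 6-week libraries lay wholly above (2.04% of all genes), and Ncaph lay wholly below (1.46%). None of the 5 passed in every alternative. Without NPC 6 weeks replicate A the count was 0, without NPC 6 weeks replicate B or C or NPC 3 weeks replicate D it was 2 (Nusap1 and Prc1), and without NPC 3 weeks replicate B it was 9. From 6 to 9 weeks no gene passed in WT or in NPC with limma, where 0% and 0.178% of all genes were higher and 0.00712% and 0.192% lower. At an unadjusted p under 0.05 there were 7 and 19 of the 47, against 1646 and 1552 of all 14046 genes. The 7 in WT were near the share over all genes. In WT edgeR gave 0, and DESeq2 gave Kif23 higher and Ncaph lower. In WT 3 genes lay wholly above and 1 wholly below (2.61% and 3.72% of all genes). In NPC the median log2 change over this step was -0.63, against 0.05 over all genes, and in 13 genes every 9-week library lay below every 6-week library (5.38% of all genes), and in none above (6.96%). For Bub1, at 160, 155, 150 and 99.6 normalized counts at 6 weeks and 46.7, 72.3 and 73.7 at 9 weeks, the change was -1.13 ± 0.27 (adjusted p = 0.0565). Bub1 passed with edgeR and DESeq2, which gave 2 and 5 lower genes, and in limma without NPC 6 weeks replicate D. Without NPC 3 weeks replicate C 4 genes were lower (Bub1, Racgap1, Nusap1 and Plk1). In order of the median summed level, the groups ran WT 3, 6 and 9 weeks, NPC 3 weeks, NPC 9 weeks control, NPC 9 weeks, NPC 9 weeks PLX5622, NPC 6 weeks, then NPC and WT at 1 week. Each of these neighbours overlapped in their libraries, except that NPC 6 weeks (9135 to 12215) lay wholly below NPC 1 week. In the sum without Ncaph, WT 3 weeks (3340 to 3845) also lay wholly below WT 6 weeks (4183 to 5386).

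The wider pathway was read from lists outside the 47. Of 40 other mitotic genes, 11 were higher and 1 lower in NPC at 3 weeks, 15 and 0 at 6 weeks, and 5 and 1 at 9 weeks. Over all tested genes 14.3%, 8.76% and 11.2% were higher and 12.6%, 6.5% and 7.77% lower at these ages, so the count at 9 weeks was near the share over all genes. Iqgap3, a scaffold protein linked to proliferation and cytokinesis, was higher at all 3 ages, by 1.16 ± 0.16, 1.25 ± 0.16 and 1.15 ± 0.17 on the log2 scale. The centrosomal kinase Nek2 was higher at 3 weeks (2.15 ± 0.32) and 6 weeks (1.93 ± 0.32). Of 32 DNA replication genes, 12, 15 and 8 were higher at 3, 6 and 9 weeks and none was lower, beside those same shares over all genes. Uhrf1, which maintains DNA methylation at replication forks, was higher by 0.83 ± 0.21, 2.17 ± 0.21 and 0.82 ± 0.23, and Mcm2, a subunit of the replicative helicase, by 0.69 ± 0.13 and 1.09 ± 0.13 at 3 and 6 weeks. Of 15 genes that restrain the cell cycle, 2 were higher and 5 lower at 3 weeks, 2 and 4 at 6 weeks, and 0 and 4 at 9 weeks. The 2 higher at 3 weeks were near the 14.3% of all genes. Pkmyt1, a kinase that holds Cdk1 inactive, was higher at 3 and 6 weeks (0.94 ± 0.27 and 1.45 ± 0.27). Ccng2, a cyclin found in cells leaving the cycle, was lower at 6 and 9 weeks (-0.86 ± 0.16 and -1.12 ± 0.18).

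In the treatment arm no gene passed between PLX5622 and control with limma or edgeR, in either direction (0.637% of all genes were higher and 0.311% lower). An unadjusted p under 0.05 was found with limma for 2 (Bub1 and Incenp), against 1931 of all 12877 genes. DESeq2 called Bub1 alone. No gene separated the groups (2.1% of all genes were above and 1.79% below without overlap). A missed threshold does not show that the groups were alike, since the intervals were wide: for Prc1 the 95% interval of the ratio ran from 0.155 to 6.44, and the standard error for Plk1 was 1.31 around a log2 difference of 0.16. The 5 PLX5622 libraries differed widely from each other. Their summed levels were 29680, 41425, 10543, 4778 and 6409 normalized counts in replicates 1 to 5, and those of the control libraries were 4570, 14109.5, 9445, 6725 and 7536. PLX5622 replicates 1 and 2 were above all 5 controls for 43 and 46 of the 47 genes, replicate 3 for 10, replicate 4 for 1 and replicate 5 for 0. Replicates 3, 4 and 5 were below all controls for 3, 27 and 9 genes. The share over all genes was not taken for single libraries. These counts therefore describe the libraries and do not show a trait of the 47 genes. Control and untreated NPC mice at 9 weeks differed for no gene with limma, edgeR or DESeq2 (0% of all genes passed in either direction). None of the 47 had an unadjusted p under 0.05 with limma, against 598 of all 14312 genes.

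PLX5622 replicates 1 and 2 stood out in most genes. Cdk1 measured 162, 428, 326, 224 and 207 normalized counts in controls 1 to 5 and 1044, 1288, 286, 256 and 269 in PLX5622 replicates 1 to 5. The first pair of PLX5622 libraries was above all controls and the others were inside the control range (0.93 ± 0.47, adjusted p = 0.387). Ccnb2 was 86.9, 516, 162, 70.1 and 143 in controls and 1203, 2356, 508, 46.7 and 41 with PLX5622, where replicates 4 and 5 were below every control. Racgap1 was 233, 760, 417, 230 and 336 in controls and 2147, 2855, 519, 194 and 239 with PLX5622, with replicate 4 alone below. Top2a was 89.6, 361, 456, 303 and 218 in controls and 774, 1552, 253, 63.5 and 210 with PLX5622, with the same pair high and replicate 4 lowest. Mki67 followed the same order at the extremes, with 42.6, 210, 234, 138 and 92.1 in controls and 758, 1193, 173, 4.67 and 155 with PLX5622. Bub1, with the largest difference of the 47 genes, was 16.9, 58.2, 87.7, 25.4 and 40.9 in controls and 670, 601, 170, 64.4 and 53.4 with PLX5622 (2.24 ± 0.73, adjusted p = 0.171). Replicates 1 to 3 were above every control and the others inside their range. Incenp spread less, at 503, 697, 759, 822 and 672 in controls and 1388, 1228, 810, 989 and 714 with PLX5622 (0.55 ± 0.20, adjusted p = 0.214). Replicates 1, 2 and 4 were above every control for this gene. Ncaph did not follow the other genes: it was 397, 1016, 1093, 853 and 1211 in controls and 613, 763, 855, 538 and 991 with PLX5622, with all PLX5622 libraries inside the control range. Among controls, replicate 2 was the highest library for 37 of the 47 genes and replicate 1 the lowest for 28.

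**Figure D4:**
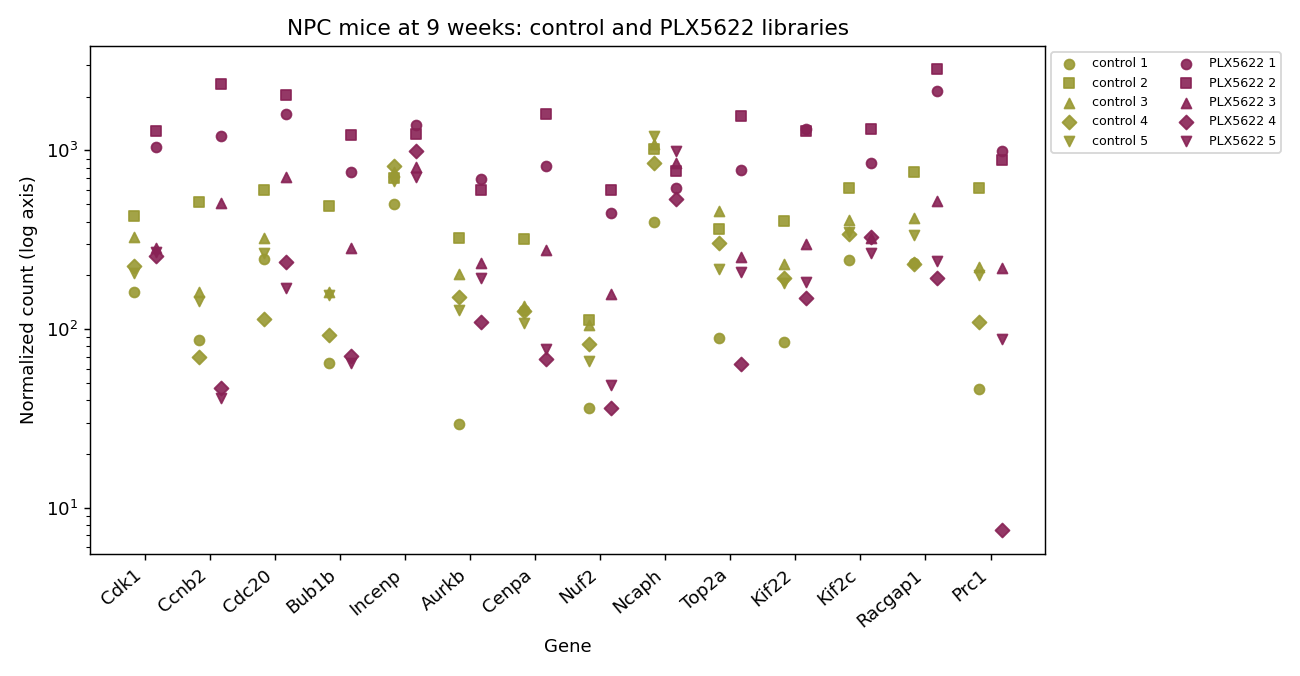
Normalized counts (log axis) of the 2 genes of each role group with the highest mean level, in the 5 control (olive) and 5 PLX5622 (purple) libraries of NPC mice at 9 weeks, with 1 symbol per replicate number. PLX5622 replicates 1 and 2 (circle and square) are the 2 highest points for every gene shown except Ncaph.

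The pair of high PLX5622 libraries differed in the genes of DNA replication. The 32 replication genes summed to 12255 normalized counts in replicate 1 and 42695 in replicate 2, and to 17412, 15082 and 21868 in replicates 3 to 5. Control libraries held 13486 to 22834, so that replicate 1, with 43 mitotic genes above every control, had the lowest replication sum of the arm. Replicate 5 showed the opposite, with a replication sum near the top of the control range beside a mitotic sum of 6409. At 1 week, when both sums were high, the replication genes summed to 60346.5 to 78543. Other markers varied too: the markers of monocytes and neutrophils summed to 6086, 4536, 96718, 5020 and 705 in PLX5622 replicates 1 to 5 and to 888, 5155, 341, 1986 and 294 in the controls, so the highest of these sums was in replicate 3, which had 10 mitotic genes above every control. Markers of border-associated macrophages summed to 48193, 26392, 26275.5, 41739 and 34435 in the PLX5622 libraries and 19119 to 29582 in the controls, with replicates 1, 4 and 5 above every control. Microglial markers summed to 920737 to 1192930 with PLX5622 and 1041480 to 1240350 in controls. The part of other cell types in these differences between libraries was not tested.

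**Figure D5:**
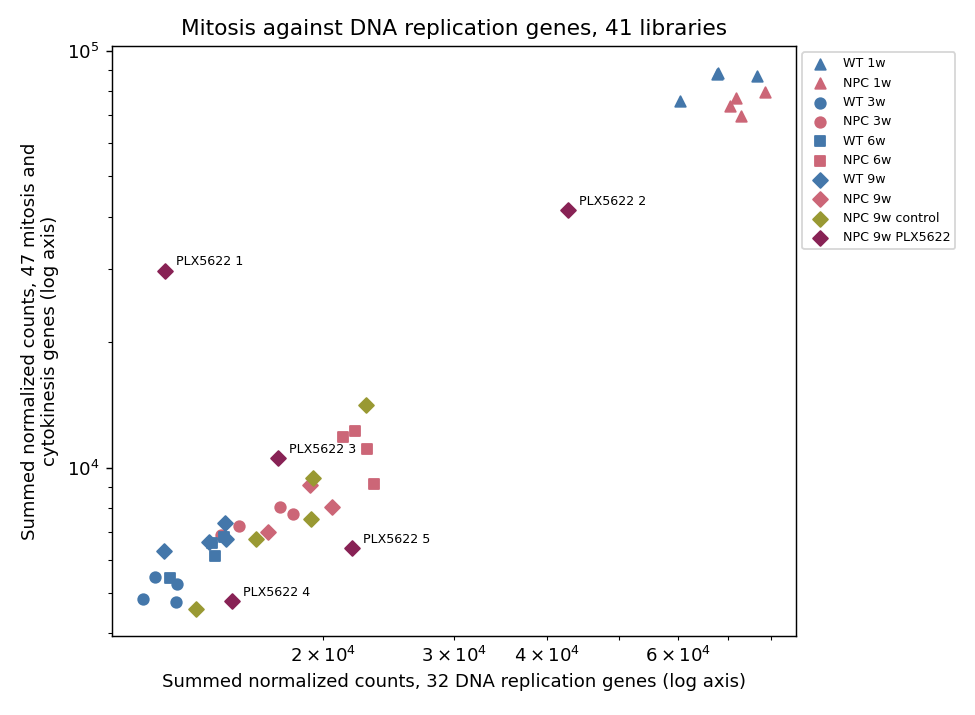
Summed normalized counts of the 47 mitosis and cytokinesis genes (y, log axis) against those of 32 DNA replication genes (x, log axis), with 1 point per library, colour for genotype or treatment and shape for age. PLX5622 replicate 1 lies at 12255 and 29680, away from the other libraries, and replicate 2 at 42695 and 41425, between the 1-week libraries and the rest.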

How the data were processed

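RNA from 41 libraries of sorted cerebellar microglia was measured by paired-end sequencing after SMART-seq v4 amplification, per the labels' protocols. The authors deposited normalized counts (unit signal: gene counts divided by a factor per library); FastQC 0.11.4, STAR 2.5.1b, DESeq2 and build mm9 are named in the submitters' processing notes, and the annotation, counting tool and strand setting are not given in the sources used here. The low values stepped evenly, so whole reads were recovered (100% of values whole within 1e-06), 23.2 M to 40.5 M per library.

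All 24015 genes were kept in 1 table, of which 5501 were at 0 in every library. Genes with a normalized count of at least 10 in at least 3 libraries were tested as log2(normalized count + 1) with limma 3.58.1 in R 4.3.3, with p-values adjusted by the Benjamini-Hochberg method over all tested genes: 14046 in the time course, 12877 for PLX5622 against control, and 14312 for control against untreated. A fold change on this scale understates the change of low genes. Time-course groups shared 1 fit. Alternatives were pseudocount 5, no filter, rescaling, quantile normalization, a replicate block, a fit limited to the groups compared, left-out libraries, and count tests of the recovered reads of 40 libraries (DESeq2 1.42.0 and edgeR 4.0.16). WT 9 weeks replicate C was left out of those count tests, because a check flagged the step of its values as possible rounding. Its recovered values were 100% whole, as in the other libraries. The scripts were tested on simulated data. No deposited sample column was left unused.

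The main fits used no pairing, and the replicate block was an alternative. At 1 week each letter pair's deviations from the group means correlated with r of 0.111 to 0.163, and the block changed no call there. At other ages not every pair exceeded 0.1. In the treatment arm r ran from -0.148 to 0.267 over the replicate numbers.

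The 47 genes and the lists were chosen with earlier results of these data known. Values by library are given for the 2 genes of each role group with the highest mean level, and from each other list the 2 genes with the smallest adjusted p at 6 weeks are named; Mki67, Ube2c, Kif23, Kif4, Ccna2 and Bub1 were added after their values were seen.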

Additional observations from a re-analysis of the deposited data

Results flagged for a closer look

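Single libraries stood apart from the rest of their group, by the gap to the nearest library relative to the group's range, in 14 of 135 groups over the 14 genes given by library and the summed level, and in 42 of 432 groups over all 47 genes and the summed level. Chance gives about 1 in 20 such groups when they are independent. Here the same libraries recur for every gene, so these counts cannot be tested against that rate. Untreated NPC mice at 9 weeks, with 3 libraries, were not part of this check. Control replicate 2 was the library in 7 of the 42 and NPC 3 weeks replicate C in 6. Control replicate 2 was high for Ccnb2 (516 normalized counts), Bub1b (491) and Cenpa (318). NPC 3 weeks replicate C was high for Ccnb2 (551) and Cenpa (463) and low for Incenp (40.3). WT 3 weeks replicate C was high for Cdk1 (376) and Aurkb (90.5), and WT 9 weeks replicate C was low for Bub1b (29.8) and high for Kif2c (195). The others were the summed level in WT 1 week replicate A (75792, low), Cenpa in WT 1 week replicate D (2699.5, high), Ncaph in WT 6 weeks replicate B (1679, high) and Top2a in NPC 1 week replicate B (3523, low).

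The NPC minus WT difference changed with age by limma's test of the difference itself. From 1 to 3 weeks it rose on the log2 scale by 1.40 for Ccna2, 1.95 for Ccnb1, 1.37 for Aurka, 2.52 for Ube2c, 1.57 for Birc5, 2.25 for Spc24, 1.45 for Kif2c and 2.41 for Kif23. From 3 to 9 weeks it changed by -1.96 for Ccnb1, -2.08 for Ube2c and -2.10 for Kif23.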

How the results depend on the processing

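Of 2734 refits of 159 results for single genes, 2509 kept their direction and side of the threshold, 225 no longer passed and 0 reversed. All 47 falls from 1 to 3 weeks passed in both genotypes under every alternative run. These falls were among the 159 results, so all 225 losses lay in the other comparisons. For NPC against WT, 4 of 21 calls at 3 weeks, 13 of 26 at 6 weeks and 1 of 1 at 9 weeks passed in every alternative. It was 3 of 8 for the genotype difference from 1 to 3 weeks and 0 of 3 from 3 to 9 weeks. From 3 to 6 weeks it was 0 of 1 in WT and 0 of 5 in NPC. NPC against WT gave, at 3 weeks, 4 higher genes in the fit limited to those groups and 17 to 21 with 1 library left out, with 0 to 1 lower. At 6 weeks it gave 20 to 29 higher with 1 library left out. Changes of method, or leaving out NPC replicates B and C, gave 19 to 34 at that age. At 9 weeks 3 were higher in the limited fit, 1 to 2 with 1 library left out and 4 without NPC 3 weeks replicate C (an alternative chosen after seeing the data), and lower genes numbered 1 by quantile normalization, 0 to 1 with 1 left out and 1 without NPC 3 weeks replicate C. For WT at 6 against 3 weeks, higher genes numbered 0 by quantile normalization, 2 by edgeR, 5 by DESeq2, 0 with the replicate block, 0 in the limited fit, 0 to 7 with 1 left out and 3 without NPC 3 weeks replicate C. For WT at 9 against 6 weeks DESeq2 gave 1 higher and 1 lower, and the fit without NPC 3 weeks replicate C gave 1 higher. For NPC at 6 against 3 weeks, higher genes numbered 9 after rescaling, 3 by quantile normalization, 18 by DESeq2 (with 1 lower), 0 in the limited fit, 1 without NPC 6 weeks replicates B and C, and 0 to 9 with 1 left out. For NPC at 9 against 6 weeks, lower genes numbered 1 with pseudocount 5, 1 without the filter, 2 by quantile normalization, 2 by edgeR, 5 by DESeq2, 0 to 1 with 1 left out and 4 without NPC 3 weeks replicate C. The change in the genotype difference from 1 to 3 weeks passed for 5 genes after rescaling, 4 by quantile normalization, 14 by DESeq2, 4 with the replicate block and 4 to 10 with 1 left out, and that from 3 to 9 weeks for 0 with the block, 0 in the limited fit and 0 to 4 with 1 left out. DESeq2 gave 1 higher gene for PLX5622. The causes were not tested. The replicate block gave 22 higher genes at 3 weeks and 27 at 6 weeks, where the letters were not shown to pair mice. Rescaling to equal totals moved the median log2 difference of all genes by more than 0.1 for NPC against WT at 3 weeks (by -0.14), from 1 to 3 weeks (by -0.10 in WT and -0.21 in NPC) and from 6 to 9 weeks in WT (by 0.11). Kif4 rested on 5 to 11 reads per WT library at 3 weeks, which limits its fold.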
